A study of Mus musculus with 12 samples.

Results

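Inguinal white adipose tissue (iWAT) lies under the skin of the groin, and epididymal white adipose tissue (eWAT) is a visceral depot of male mice. The 2 depots were compared gene by gene on the average expression of each one, the authors' log2 CPM (the reads counted for a gene, scaled to a common library size). Of the 27179 genes in the tables of both depots, 14297 had an average of at least 0 on this scale, that is 1 CPM, in at least one depot, and these are the genes compared. The gap of a gene is its average in iWAT minus its average in eWAT.

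The samples came from mice of the strain C57/BL6, and no Hnf4a genotype is given for them, although the study also used mice that lack Hnf4a in the intestine. All mice received 3 injections under the skin within 10 days on chow and then 5 injections during 2 weeks of HFD. Each depot has 3 samples of mice given saline and 3 of mice given (D-Ala2)GIP[Lys37PAL], an analog of the gut hormone GIP, in doses of 2 pmol/kg, 12 samples in all, and the last chow injection of the analog mice already held the analog. The averages used here run over both treatments, 6 samples a side, so every value below belongs to mice on HFD, with 3 of the 6 samples of a depot from mice given the analog. The study as a whole dealt mainly with young adult males, and the labels state neither sex nor age, nor whether both depots came from the same mice.

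Each average stands without a standard deviation, since the 12 columns of values per sample carry names that match no sample label and were not used. There was therefore no replicate check on any gap, no test was run, and which samples carry a high average is not known here. The authors processed the depots as separate tables, and the depth of each sample is unknown here. The 18 widely expressed reference genes had a median gap of −0.05, with a range from −0.97 for Tfrc to 0.95 for Sdha, and the median over all genes compared was 0.02. A gene was counted as higher in a depot when its gap passed 1.5 on the log2 scale, the fold used in the methods of the study. Averages far below 0 rest on few reads and are drawn towards each other by the small count that edgeR adds, so folds against such values depend on it. The lowest average was −2.82 in the iWAT table and −2.33 in the eWAT table.

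White fat depots arise from different parts of the embryo, and their stromal cells and adipocytes keep the patterning genes of their place of origin into adult life. Visceral fat such as eWAT is covered by mesothelium, a sheet of epithelial cells that lines the body cavity, whereas subcutaneous fat has no such cover. Mouse iWAT is also known for beige adipocytes, which burn fuel through the uncoupling protein UCP1, and a lymph node lies within the inguinal pad.

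Of the 14297 genes, 647 (4.53%) were higher in iWAT and 270 (1.89%) were higher in eWAT past the fold, while 13380 stayed within it. The gap was within 0.5 for 70.8% of the genes and within 1 for 88.3%. Most of the genes compared were thus at a like average in both depots. The shares of 4.53% and 1.89% are the background for the counts of each gene list below. Of the genes past the fold, 118 of 647 and 42 of 270 are in any of the gene lists described here. The genes with the largest gap towards iWAT at an average of at least 2 were Ucp1, 9 genes of the major urinary protein (Mup) family, Fabp3, Il1r2, Elovl3, Hoxa10 and Hoxc10. Among the largest towards eWAT were Upk3b, Msln, Upk1b, Wt1, Krt7, Tnfrsf11b, Igfbp2, Tmem151a, Hspb7, Slpi, Myrf, Lgals7, Col6a5 and Nkain4. At the edges of the rules, 2810408A11Rik just entered the comparison with 0.00 in iWAT and −0.28 in eWAT, and Pla2g4b just missed it with −0.24 and −0.00. Opcml just passed the fold, with 2.07 in iWAT and 0.57 in eWAT, and Serpina1d just missed it, with 0.79 and 2.29.

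**Figure D1:**
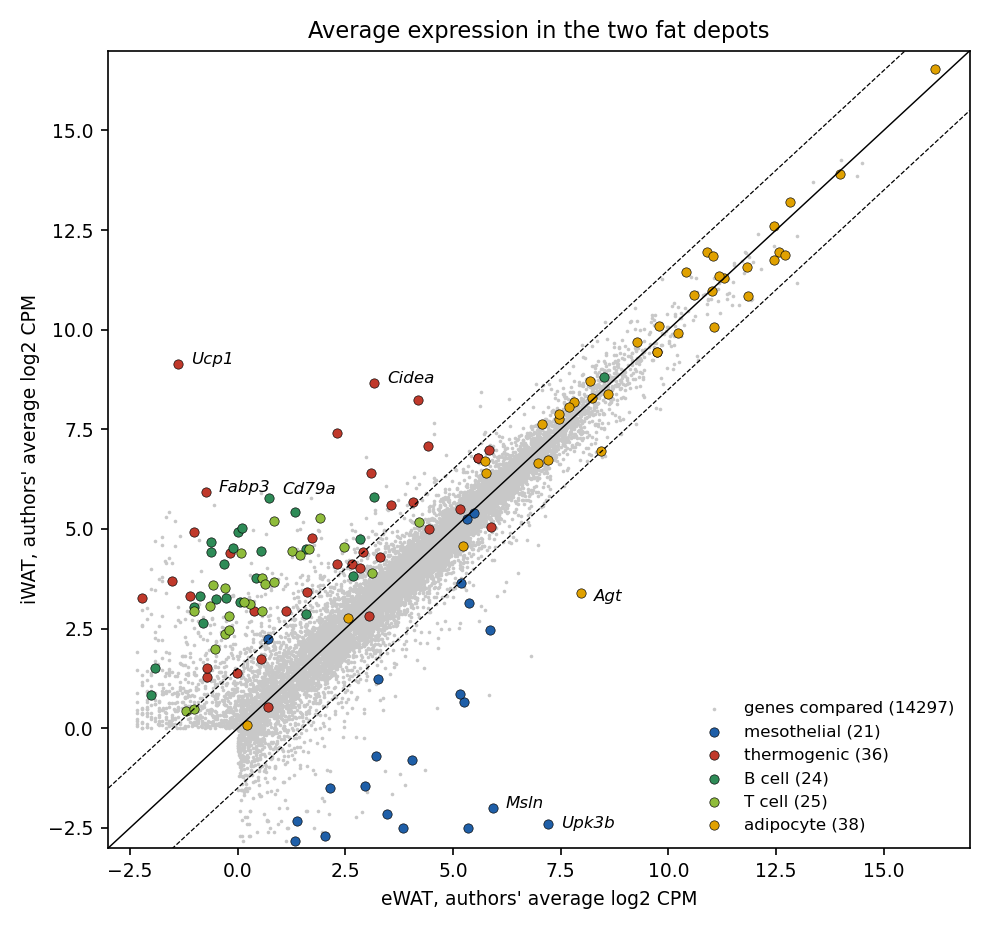
Average log2 CPM of each of the 14297 genes compared, with eWAT on the x axis and iWAT on the y axis. Each point is 1 gene, coloured for 5 gene lists with their number of genes compared, the solid line marks equal averages and the dashed lines a gap of 1.5 either way. Ucp1 (9.15 in iWAT) stands far above the dashed lines, Upk3b (7.22 in eWAT) far below them, and 37 of the 38 adipocyte genes lie between them.

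The promoters of 4 genes are shown because they carry the largest gap in each direction and the opposite gaps within 1 Hox cluster. The windows of 300 bases, 250 before and 50 after the transcription start, are from RefSeq on GRCm38.p6. Capitals mark TATAAA (the core of a TATA box) and GGGCGG (a GC box), searched on both strands; being made of different letters, these motifs cannot overlap. Ucp1, at chr8:83290098-83290397 on the plus strand, held neither motif and 15 CG dinucleotides.
Ucp1: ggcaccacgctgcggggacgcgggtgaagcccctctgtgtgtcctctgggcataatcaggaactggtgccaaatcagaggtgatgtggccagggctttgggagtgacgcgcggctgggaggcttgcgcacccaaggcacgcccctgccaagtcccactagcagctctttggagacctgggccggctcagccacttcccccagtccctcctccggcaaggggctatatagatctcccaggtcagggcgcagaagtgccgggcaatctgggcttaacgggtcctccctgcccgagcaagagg
Upk3b, at chr5:136038246-136038545 on the plus strand, held neither motif and 2 CG dinucleotides.
Upk3b: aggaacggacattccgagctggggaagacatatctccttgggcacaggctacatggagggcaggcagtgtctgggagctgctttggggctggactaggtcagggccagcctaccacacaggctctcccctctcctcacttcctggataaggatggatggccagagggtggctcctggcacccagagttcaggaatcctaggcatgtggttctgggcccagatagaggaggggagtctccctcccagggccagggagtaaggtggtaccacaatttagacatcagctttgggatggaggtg
Hoxa10, in 1 of its 2 windows, at chr6:52234890-52235189 on the minus strand, held TATAAA and 21 CG dinucleotides.
Hoxa10: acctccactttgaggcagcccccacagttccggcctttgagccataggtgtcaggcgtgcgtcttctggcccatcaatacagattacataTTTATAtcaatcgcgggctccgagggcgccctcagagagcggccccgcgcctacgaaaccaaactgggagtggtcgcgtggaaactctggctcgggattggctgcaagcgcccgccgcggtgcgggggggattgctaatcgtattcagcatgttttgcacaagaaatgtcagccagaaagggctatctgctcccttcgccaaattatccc
Hoxa5, at chr6:52204538-52204837 on the minus strand, held neither motif and 29 CG dinucleotides.
Hoxa5: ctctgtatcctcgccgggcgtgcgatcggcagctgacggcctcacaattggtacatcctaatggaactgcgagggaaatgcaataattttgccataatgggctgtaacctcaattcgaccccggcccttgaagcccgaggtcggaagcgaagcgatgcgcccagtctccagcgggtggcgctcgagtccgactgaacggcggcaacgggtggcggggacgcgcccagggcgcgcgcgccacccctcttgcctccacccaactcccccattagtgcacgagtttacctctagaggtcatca

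The windows of all genes past the fold were described in the same way. GGGCGG was present in 33.1% of the 510 windows of genes higher in iWAT (398 genes had one) and in 49.4% of the 235 windows of genes higher in eWAT (188 genes). Its share was 60.3% of the 13712 windows of all genes compared and 35.7% of all 32851 windows. TATAAA was in 12.4% of the windows of genes higher in iWAT, in 13.6% of those higher in eWAT, in 7.80% of those of genes compared and in 13.6% of all windows. The median number of CG dinucleotides was 6 for genes higher in iWAT, 12 for genes higher in eWAT, 19 for genes compared and 7 over all windows. Windows of genes past the fold on either side were thus poorer in CG than those of the genes compared as a whole, and more so on the iWAT side. These shares describe letters in a window and were not tested.

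The Hox genes encode transcription factors that set position along the body axis, with low numbers expressed towards the head and high numbers towards the tail. Of 39 Hox genes, 26 were compared, 3 were higher in iWAT, 2 were higher in eWAT and 21 stayed within the fold, with a median gap of −0.43. Hoxa10 (gene 15395, chromosome 6 from 52231197 to 52240854) averaged 4.94 in iWAT and −0.98 in eWAT, a gap of 5.91. Hoxc10 averaged 4.19 in iWAT and −1.68 in eWAT, and Hoxa9 averaged 3.41 and −1.67. All 3 were thus well above 1 CPM in iWAT and under it in eWAT. Hoxc9 was at 4.33 in iWAT and 3.01 in eWAT, a gap of 1.31 that misses the fold, and Hoxb9 and Hoxd9 had gaps of −0.22 and −0.18.

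Genes nearer the front of the clusters leaned the other way. Among the 20 genes compared with numbers from 1 to 8, 16 had a gap below 0 and 4 above 0, with a median of −0.59. Over all 14297 genes compared, 6888 had a gap below 0 and 7409 above 0. Of the 6 genes numbered 9 or 10, 4 had a gap above 0, all of them HoxA or HoxC genes. The other 2, Hoxb9 and Hoxd9, were slightly below 0. The median of these 6, 3.20, falls between Hoxc9 at 1.31 and Hoxa9 at 5.08 and is near no single gene. None of the 9 genes numbered 11 to 13 was compared, so neither depot averaged 1 CPM for any of them. This split of the numbers was chosen after the values were seen. Hoxa5, which lies in the same cluster as Hoxa10 (gene 15402, chromosome 6 from 52201754 to 52204587), averaged 0.78 in iWAT and 2.77 in eWAT. Hoxc4 averaged 2.47 in iWAT and 4.10 in eWAT, and these were the pair of Hox genes past the fold in that direction. Hoxc8 was at 5.08 in iWAT and 6.31 in eWAT, 2 places before Hoxc10 in number, with a gap of −1.23. The HoxB genes, from Hoxb2 to Hoxb9, had gaps between −0.94 and 0.42, so none of them passed the fold. Hox genes lie close together and some share exons, and how reads were assigned to genes is not given in the sources used here.

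**Figure D2:**
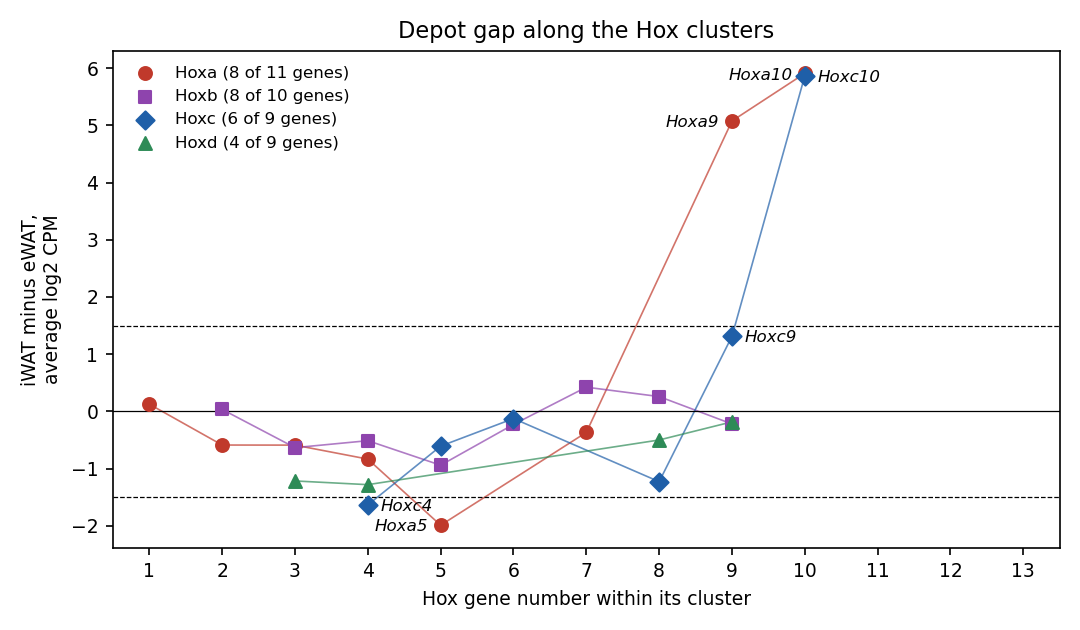
Gap between the depots (iWAT minus eWAT, log2 CPM, y axis) for the 26 Hox genes compared, by their number within a cluster (x axis). Each point is 1 gene and each colour 1 cluster, with dashed lines at a gap of 1.5 either way. Hoxa9, Hoxa10 and Hoxc10 stand above 5, while Hoxa5 and Hoxc4 lie below the lower dashed line.

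Other patterning factors divided between the depots. Of 59 such genes, 29 were compared, 6 were higher in iWAT and 6 in eWAT, and the median gap was −0.09. Higher in iWAT were Shox2, Tbx15, Lhx8, Osr2, Tbx5 and En1. Shox2, a homeobox factor of limb development (gene 20429, chromosome 3 from 66971723 to 66981771), averaged 4.74 in iWAT and −0.91 in eWAT. Tbx15, a T-box factor of skeletal and fat development, averaged 3.80 in iWAT and −1.75 in eWAT. The LIM homeobox factor Lhx8 averaged 3.26 in iWAT and −2.22 in eWAT. These 3 factors had gaps between 5.48 and 5.64, much like those of Hoxa10 and Hoxc10. Osr2 was higher in iWAT by 3.13, while its relative Osr1 averaged 4.58 in iWAT and 5.29 in eWAT. Tbx5, a factor of forelimb and heart, averaged 1.11 in iWAT and −1.83 in eWAT, and En1, a factor of the ventral limb and skin, averaged 0.90 and −1.67.

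Higher in eWAT were Wt1, Isl1, Alx1, Nr2f1, Hand2 and Foxc1. Wt1, the Wilms tumour factor of mesothelium and its descendants (gene 22431, chromosome 2 from 105126529 to 105173614), averaged −2.50 in iWAT and 3.85 in eWAT. Isl1 averaged 1.11 in eWAT and stood at the lowest value of the iWAT table, −2.82. Alx1 averaged −2.50 in iWAT and 1.15 in eWAT. The nuclear receptor Nr2f1 averaged −0.28 in iWAT and 1.67 in eWAT, whereas its close relative Nr2f2 was at 4.52 and 4.88. Gata6, a factor of visceral mesoderm, came to a gap of −1.48, just within the fold. Tcf21, a factor often named for visceral fat precursors, averaged −2.70 in iWAT and −0.24 in eWAT and so missed the limit for comparison in both. Several factors of mesenchyme were within the fold, among them Prrx1 with a gap of 1.08, Meox2 with −0.09, Tbx3 with 0.25 and Twist1 with 0.15.

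Secreted signals that pattern mesenchyme leaned towards eWAT, with 36 of 47 compared and a median gap of −0.56. Higher in eWAT were 6 (16.7%, beside 1.89% of all genes compared). Only 2 were higher in iWAT (5.56%, near the 4.53% of all genes compared). Rspo1, an enhancer of Wnt signalling, averaged −0.70 in iWAT and 3.22 in eWAT, and Nog, an inhibitor of bone morphogenetic proteins (BMPs), −1.81 and 1.11. Also higher in eWAT were Aldh1a2, an enzyme that makes retinoic acid, the activin inhibitor Fstl3 and the Wnt inhibitor Sfrp1, with gaps from −2.05 to −1.56. Rspo1 and Aldh1a2 are also in the mesothelial list. Wnt2 averaged 2.22 in iWAT and −0.40 in eWAT, and Fgf7, a growth factor for epithelium, 3.28 and 1.69. Gpc4, a cell surface proteoglycan described as a marker of fat distribution, averaged 5.66 in iWAT and 6.47 in eWAT, within the fold.

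All 21 genes of the mesothelial list were compared, and 18 of them were higher in eWAT past the fold, 1 was higher in iWAT and 2 were within it. The median gap was −4.16, beside 0.02 over all genes compared. In bulk tissue, fewer cells of a type and less RNA per cell cannot be told apart. Upk3b, a uroplakin of mesothelial cells (gene 100647, chromosome 5 from 136038496 to 136044993), averaged −2.40 in iWAT and 7.22 in eWAT, or 0.189 and 149 CPM. Msln, which encodes mesothelin on the surface of these cells, averaged −2.01 in iWAT and 5.93 in eWAT. Upk1b averaged −2.50 and 5.36. In iWAT these 3 defining markers were thus near the lowest value of the table.

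The keratins of simple epithelia followed, with Krt19 at 0.66 in iWAT and 5.27 in eWAT, Krt7 at −2.16 and 3.47, Krt8 at −1.44 and 2.95, and Krt18 at −1.49 and 2.14. Lrrn4, a membrane protein of mesothelium, was at 0.87 in iWAT and 5.16 in eWAT. Bnc1, a zinc finger factor, averaged −2.70 in iWAT and 2.03 in eWAT. Muc16, a mucin of mesothelial surfaces, averaged 1.34 in eWAT and stood at the lowest value in iWAT. The members within the fold, Cldn15 and Podxl, averaged from 5.25 to 5.49 in both depots. Cdh2, a cadherin that many other cells express, averaged 2.25 in iWAT and 0.72 in eWAT.

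The mesothelial list holds 18 of the 270 genes higher in eWAT. It is a short list, so this is no count of the genes that mesothelium expresses. Among the 15 largest gaps outside the lists stood Slpi, a protease inhibitor of epithelia, at 1.83 in iWAT and 6.81 in eWAT, and Tnfrsf11b, the decoy receptor osteoprotegerin, at −1.04 and 4.36. Igfbp2, a binding protein of insulin-like growth factors, was at −1.44 in iWAT and 3.90 in eWAT, and the small heat shock protein gene Hspb7 at 0.84 and 5.84. Which cells of eWAT carried these transcripts was not tested.

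The epithelium and sperm duct of the epididymis were not seen in the eWAT average. Of 25 genes of the epididymis and male tract, 24 did not reach the limit for comparison in either depot, and the other, Sult1e1, an estrogen sulfotransferase that fat also expresses, averaged 4.57 in iWAT and 5.71 in eWAT. Of 15 skeletal muscle genes 5 were compared. Actn3 averaged −2.08 in iWAT and 1.87 in eWAT and was the only one of the 5 past the fold, while Ckm, Myh1, Myh2 and Myh4 reached the limit in neither depot. The highest muscle genes, within the fold, were Myl1 at 6.03 in iWAT and 5.74 in eWAT and Acta1 at 4.27 and 5.57. Of 18 genes of skin and mammary epithelium 6 were compared. Krt14 averaged −2.60 in iWAT and 1.97 in eWAT and the prolactin receptor gene Prlr 2.70 and 5.61, whereas Krtdap, a gene of keratinocytes, averaged 1.73 and −0.71.

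Thermogenic genes formed the counterpart on the iWAT side. Of 40 genes, 36 were compared, 22 were higher in iWAT, none was higher in eWAT, and the median gap was 1.82. Ucp1, which lets protons leak back into mitochondria and so turns fuel into heat (gene 22227, chromosome 8 from 83290348 to 83298456), averaged 9.15 in iWAT and −1.39 in eWAT, or 568 and 0.381 CPM. Its gap of 10.54 was the largest of the genes compared, and its promoter is the first of those shown above. Fabp3, the fatty acid binding protein of heart and brown fat, averaged 5.92 in iWAT and −0.75 in eWAT. Elovl3, an elongase of very long fatty acids, averaged 4.91 in iWAT and −1.02 in eWAT.

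Cidea, which helps lipid droplets fuse, averaged 8.65 in iWAT and 3.17 in eWAT. The proton channel gene Otop1 averaged 7.42 in iWAT and 2.31 in eWAT. Cpt1b, which encodes the muscle form of the enzyme that admits fatty acids to mitochondria, averaged 3.32 and −1.11. The cytochrome oxidase subunits of muscle and brown fat were also higher in iWAT, Cox8b at 8.25 against 4.19 and Cox7a1 at 6.42 against 3.11. Dio2, the enzyme that activates thyroid hormone, averaged 2.94 in iWAT and 1.13 in eWAT.

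Among regulators of the thermogenic state, the coactivator Ppargc1a averaged 4.42 in iWAT and 2.90 in eWAT, a gap of 1.52, and the beige and brown fat factor Prdm16 averaged 4.12 and 2.65, a gap of 1.47 just within the fold. The nuclear receptor Ppara was higher in iWAT by 2.03. Ebf2, a factor of brown and beige precursors, had a gap of 0.35, and Esrra one of −0.24. Adrb3, the β3-adrenergic receptor through which cold and noradrenaline act on fat, averaged 9.44 in iWAT and 9.75 in eWAT. Ckb, a creatine kinase of futile cycling, averaged 5.06 and 5.88. Of the markers named for classical brown fat, Zic1 did not reach the limit for comparison in either depot, whereas Lhx8, described above among the patterning factors, had a gap of 5.48. Tmem26 and Tnfrsf9, surface proteins described for beige cells, averaged 1.30 and 1.52 in iWAT and −0.70 and −0.71 in eWAT.

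**Figure D3:**
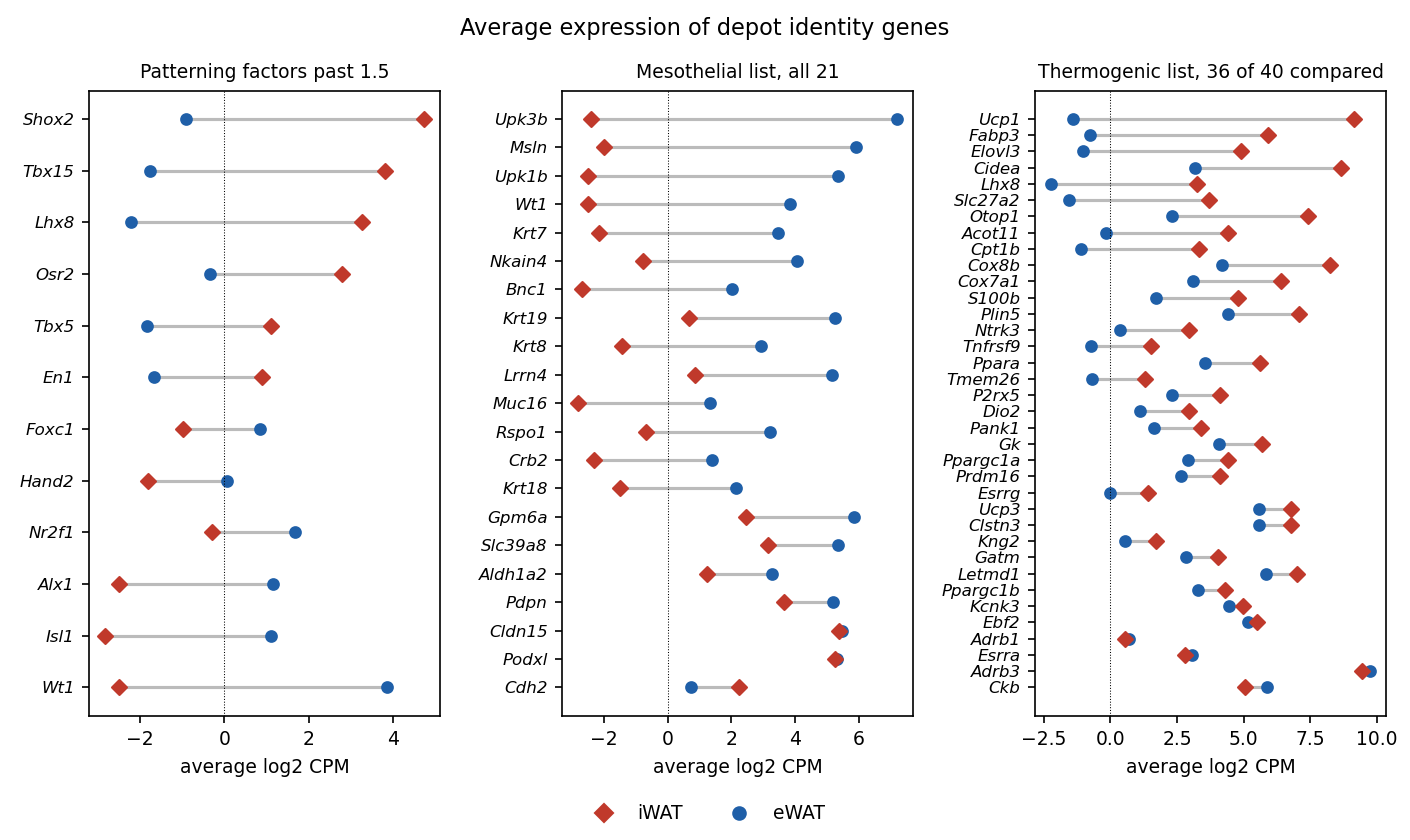
Average log2 CPM (x axis) in iWAT (red diamonds) and eWAT (blue circles) for the 12 patterning factors past the fold (left), the 21 mesothelial genes (middle) and the 36 thermogenic genes compared (right), ordered by gap, 1 gene a row. Mesothelial genes lie to the right in eWAT except Cdh2, with Cldn15 and Podxl nearly level between the depots. Thermogenic genes lie to the right in iWAT down to Ebf2, with Ckb, Adrb3, Esrra and Adrb1 the other way.

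General adipocyte genes were at like averages in both depots. All 38 were compared, 37 were within the fold, and the median gap was 0.10. Adipoq, which encodes adiponectin, averaged 11.58 in iWAT and 11.84 in eWAT, Fabp4 averaged 13.92 and 13.99, and Pparg, the master factor of fat cell formation, 8.28 and 8.24. Lep, the leptin gene, averaged 10.06 in iWAT and 11.06 in eWAT, and Retn, the resistin gene, 10.84 and 11.86. Gpd1, which makes glycerol phosphate for triglyceride, averaged 11.96 in iWAT and 10.90 in eWAT. Agt, the gene of angiotensinogen, was the exception, with 3.39 in iWAT and 7.98 in eWAT and a gap of −4.58. Npr3, a clearance receptor of natriuretic peptides, came next with −1.48.

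Precursor genes were also at like averages. Of 29 adipocyte progenitor genes compared of 30, only Pi16, a marker of early precursors, passed the fold, with 8.27 in iWAT and 6.30 in eWAT. That is 3.45%, near the 4.53% of all genes compared, and the median gap was 0.17. Pdgfra averaged 5.62 in iWAT and 4.78 in eWAT, and Dpp4 5.20 and 4.94. Collagen and matrix genes spread more widely, with gaps from −4.93 to 5.37. Among the 33 compared of 34, 4 were higher in iWAT and 2 in eWAT, with a median of −0.50. Mmp3, a secreted protease, averaged 5.91 in iWAT and 0.55 in eWAT, and Spp1, Thbs2 and Mmp2 just passed the fold with gaps of up to 1.56. Col6a5 averaged −1.15 in iWAT and 3.77 in eWAT and the thrombospondin gene Thbs1 3.44 and 6.19. The fibrillar collagen genes Col1a1 and Col3a1 had gaps of 0.91 and 0.53, whereas the basement membrane genes Col4a1 and Col4a2 had −0.78 and −0.92, all within the fold.

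None of 19 endothelial genes passed the fold, with gaps from −0.54 to 0.74 and Pecam1 at 6.87 in iWAT and 6.85 in eWAT. Of 12 smooth muscle and pericyte genes only Mylk did, with 5.59 in iWAT and 7.10 in eWAT, and of 9 lymphatic endothelial genes only Pdpn, a member of the mesothelial list as well. The list of Schwann cells and nerve stood apart from the other stromal lists. Of 12 compared of 14 genes of Schwann cells and nerve, 7 were higher in iWAT and none in eWAT, with a median gap of 2.08. Prx, a protein of myelinating Schwann cells, averaged 3.12 in iWAT and 0.35 in eWAT, and the cadherin gene Cdh19 2.07 and −0.44. S100b, which is in the thermogenic list too, averaged 4.78 in iWAT and 1.72 in eWAT. The 2 members with a gap below 0 were Pmp22, at 8.16 in iWAT and 8.64 in eWAT, and Stmn2, at 1.65 and 2.63. Sox10 and Th did not reach the limit in either depot.

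Lymphocyte genes were the other large block on the iWAT side. All 24 B cell genes were compared and 21 were higher in iWAT, with a median gap of 3.65 and gaps from 0.32 to 5.31. Cd79a, which pairs with Cd79b to signal from surface immunoglobulin (gene 12518, chromosome 7 from 24897497 to 24901858), averaged 5.78 in iWAT and 0.73 in eWAT. Ms4a1, which encodes CD20, averaged 5.03 in iWAT and 0.10 in eWAT, and Fcer2a, which encodes CD23, 4.68 and −0.63. The members within the fold were Irf4, Ralgps2 and Xbp1, of which Xbp1, a factor of secretory cells, averaged 8.81 in iWAT and 8.50 in eWAT. Of 107 segments of immunoglobulin and T cell receptor genes, 95 were higher in iWAT and none in eWAT.

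The T cell list went the same way, with all 25 genes compared, 22 higher in iWAT, none higher in eWAT and a median gap of 2.91. Cd3e, a chain of the T cell receptor complex, averaged 4.45 in iWAT and 1.27 in eWAT. Ccr7, a chemokine receptor that guides naive lymphocytes within lymph nodes, averaged 4.40 in iWAT and 0.08 in eWAT. Of 17 genes of NK and cytotoxic cells compared, 8 were higher in iWAT, and the median gap was 1.43. Ccl5 averaged 6.08 in iWAT and 3.44 in eWAT, and Ncr1, the receptor that defines NK cells, 0.81 and −0.17, within the fold.

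The list of lymph node stroma followed the lymphocyte genes only in part. It also holds the lymphocyte cytokine genes Ltb and Lta, with Ltb at 5.77 in iWAT and 1.71 in eWAT. Of 20 genes 19 were compared, 9 were higher in iWAT and 2 in eWAT, and the median gap of 1.42 came to 0.08 over the 14 genes at 1 CPM or more in both depots. Ccl19, a chemokine of the T cell zone, averaged 2.72 in iWAT and −1.05 in eWAT, and Cxcl13, the chemokine of B cell follicles, 4.97 and 1.38. Glycam1, a mucin of high endothelial venules, averaged 1.90 in iWAT and stood at the lowest value of the eWAT table. Madcam1, an addressin, averaged 0.66 in iWAT and −1.83 in eWAT. Chst4, a sulfotransferase of high endothelial venules, went the other way with 0.52 in iWAT and 2.66 in eWAT. How much of a lymph node each iWAT sample held was not measured, and its part in the gaps of immune genes was not tested. With these lists and the segments left out and CPM set anew, 500 genes were higher in iWAT and 269 in eWAT, and the shift was under 0.01. Among the genes left out, 52 list genes and 95 segments were higher in iWAT, and these make up the whole fall from 647 to 500. Such rescaling moves all remaining gaps by 1 constant, which stays small when the genes left out hold few of the reads. It cannot show whether lymphocytes had a part in the gaps of other genes, which was not tested.

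Myeloid genes were closer between the depots. All 30 macrophage and monocyte genes were compared, 25 had a gap above 0 and 5 below, and the median was 0.66. The same count over all 14297 genes compared was 7409 above 0 and 6888 below. Past the fold towards iWAT were 2 (6.67%, near the 4.53% of all genes compared), and none passed it towards eWAT. Adgre1, a surface antigen that marks mouse macrophages, averaged 5.25 in iWAT and 4.47 in eWAT, and Cd68 5.18 and 4.68. Past the fold were Timd4, a receptor of resident macrophages for dying cells, at 3.75 in iWAT and 0.94 in eWAT, and Gpnmb at 4.94 and 3.11. Trem2, a receptor of lipid-associated macrophages, averaged 1.02 in iWAT and 2.46 in eWAT, and Itgax, which encodes CD11c, 1.59 and 1.76, both within the fold.

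Of 18 dendritic cell genes 3 were higher in iWAT, with a median of 0.97: the chemokine Ccl22 at 3.80 in iWAT and 0.51 in eWAT, the growth factor receptor Flt3 at 2.31 and −0.08, and Siglech, of plasmacytoid cells, at 1.90 and 0.06. Mast cell proteases were also higher in iWAT, Cma1 at 4.86 against 2.85, Tpsb2 at 5.48 against 3.49 and Cpa3 at 5.15 against 3.29. In the list of mast cells and granulocytes 14 of 20 genes were compared and 6 were higher in iWAT, with a median of 1.07. Of 22 complement and innate humoral genes 2 were higher in each depot. The chemokine Cxcl14 averaged 6.80 in iWAT and 2.97 in eWAT and Ccl8 5.41 and 3.77, while the complement gene C6 averaged 3.06 in iWAT and 5.66 in eWAT and the serum amyloid gene Saa3 0.95 and 3.04.

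**Figure D4:**
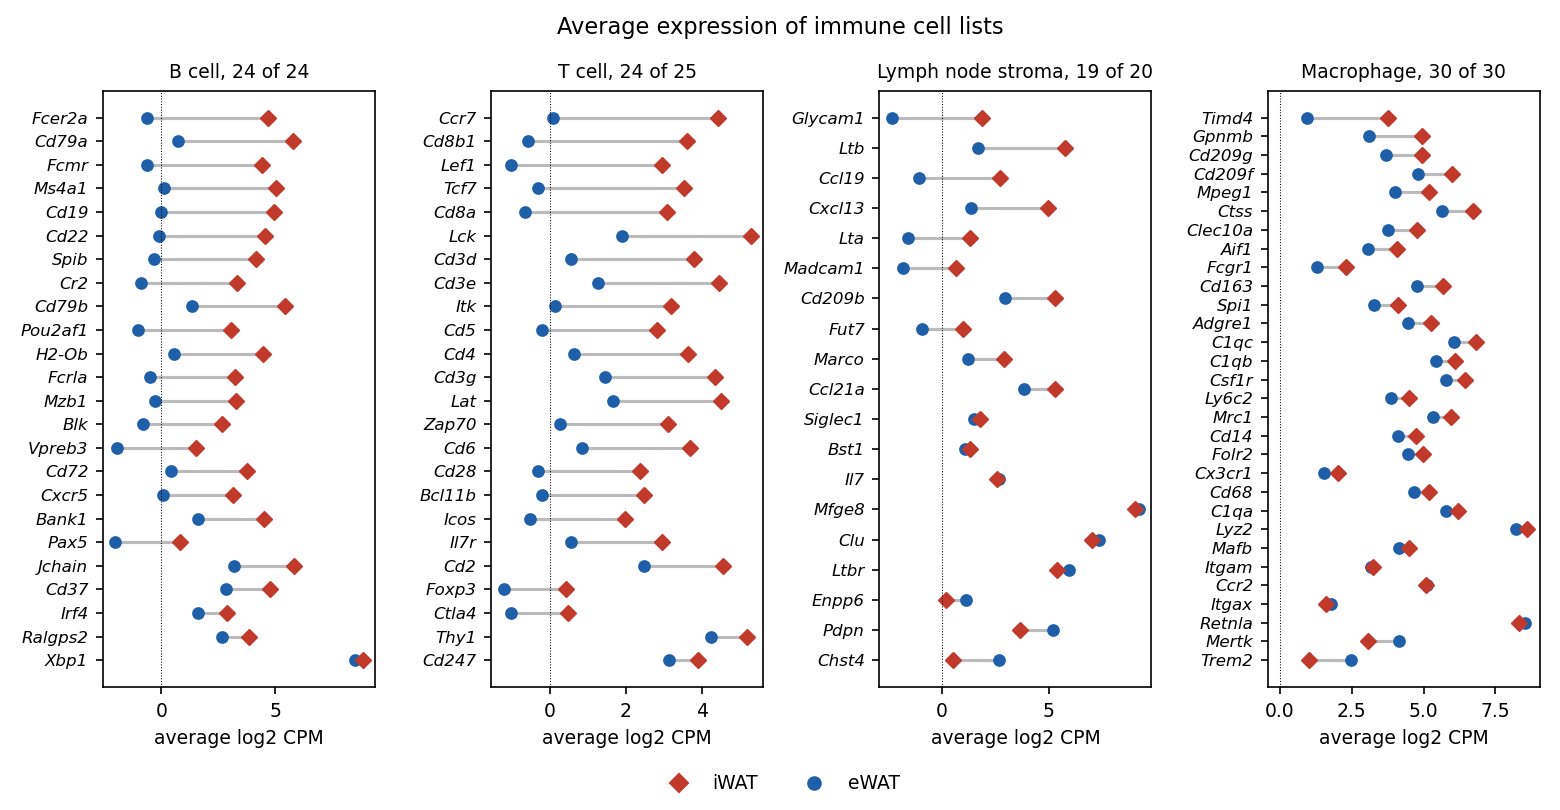
Average log2 CPM (x axis) in iWAT (red diamonds) and eWAT (blue circles) for the B cell, T cell (24 of 25 genes drawn), lymph node stroma and macrophage lists, ordered by gap, 1 gene a row. B and T cell genes lie to the right in iWAT throughout, the stromal list divides with Chst4 (0.52 in iWAT, 2.66 in eWAT) at its foot, and macrophage genes lie close together.

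The Mup genes, which encode pheromone carriers made mainly by liver, held 9 of the 15 largest gaps towards iWAT, leaving out predicted genes and immunoglobulin and T cell receptor segments. Of 22 Mup genes in the tables, 18 were compared and 17 were higher in iWAT, with Mup3 the exception at a gap of 1.06. Their averages ran from 0.37 to 5.43 in iWAT and from −2.22 to 1.18 in eWAT. All lie on chromosome 4 between 60003481 and 62087317. Many of them are near-identical copies whose reads cannot be placed with certainty, so they do not count as 17 separate signals. Il1r2, the decoy receptor of interleukin 1, averaged 4.84 in iWAT and −1.33 in eWAT.

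**Figure D5:**
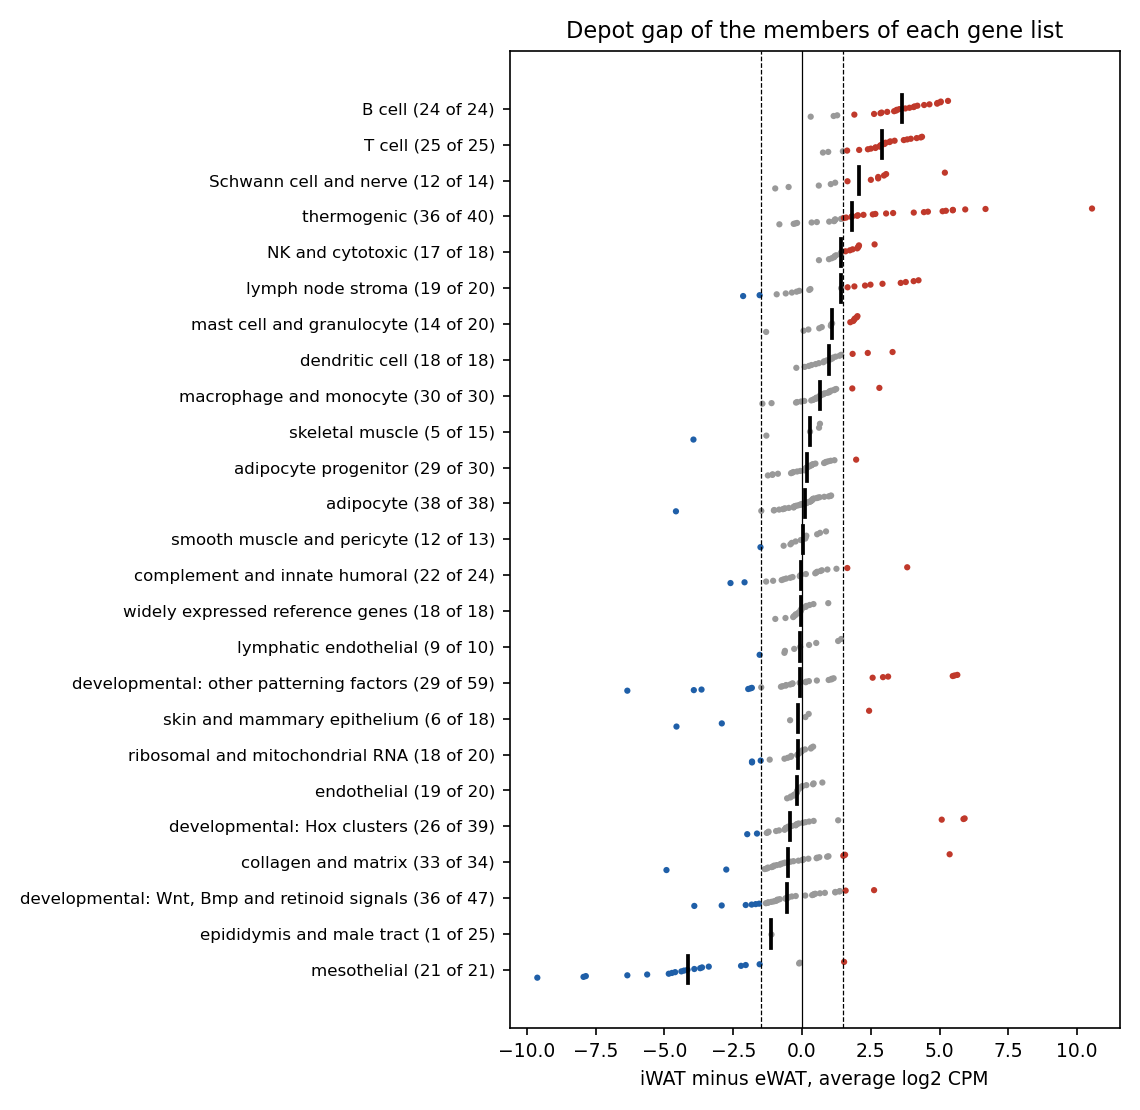
Gap between the depots (iWAT minus eWAT, log2 CPM, x axis) for the members of each of the 25 gene lists, with the number compared of all members in parentheses. Each point is 1 gene, red if higher in iWAT and blue if higher in eWAT past 1.5 (dashed lines) and grey otherwise, and the black bar is the median. The mesothelial list has the lowest median at −4.16 and the B cell list the highest at 3.65.

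Transcripts that polyA selection should leave behind also differed. Rn45s, the ribosomal RNA precursor, averaged 11.18 in iWAT and 12.99 in eWAT, and Rn7sk 0.55 and 2.05, while Rn18s was higher in eWAT by 1.82. All 3 were higher in eWAT past the fold, while none of the 15 other ribosomal and mitochondrial genes compared was past it. The part of this difference between the libraries in the gaps above was not tested.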

How the data were processed

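RNA of 12 adipose samples, 6 of iWAT and 6 of eWAT, was sequenced by the authors from polyA libraries made from 200 ng of RNA. Per the labels and methods, reads were trimmed with Trim Galore 0.6.4, aligned with Rsubread to GRCm38, filtered for low counts with DESeq2 1.32.0 and analysed with edgeR 3.34.0, separately for each depot. The counting step and annotation are not given in the sources used here. The only values used were the authors' deposited averages, in log2 CPM, 1 per gene and depot over both treatments. The same tables hold the authors' comparison of saline with the analog (fold changes, likelihood ratios, p-values and FDR), which was not used, and 12 columns of values per sample whose names match no sample label, left out of every step. The depth and the error of each sample are therefore unknown here, and the planned comparison over samples with edgeR or limma was not run.

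The tables were joined on gene ID, and the gap was taken for genes with an average of at least 0 in at least one depot. Of the genes compared, 13956 have coordinates in the RefSeq annotation of GRCm38 and 253 have no symbol. The 25 gene lists hold 640 entries, some genes in more than one list. Members, lists and genes were chosen with earlier results of these data known. Named genes were the 15 largest gaps each way at an average of at least 2, leaving out immunoglobulin and T cell receptor segments and predicted genes, patterning factors past the fold, Hox genes, the 4 highest and 4 most different members of each list and a set of defining markers. Other genes were chosen after their values were seen. Some genes that the rule names are not reported here. Promoters matched 10767 of the genes compared. The steps were tested on simulated data. Python 3.11.15, pandas 2.3.3, numpy 2.4.6 and matplotlib 3.10.9 were used.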

Additional observations from a re-analysis of the deposited data

How the results depend on the processing

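Requiring an average of at least 0 in both depots left 263 genes higher in iWAT and 122 higher in eWAT, against 647 and 270, since genes seen in only one depot drop out. A fold of 1 gave 1036 and 640 genes, and a fold of 2 gave 415 and 139. An average of at least 1 in one depot (495 and 203), no filter (721 and 347), centring on the median of all genes (636 and 283) or of the reference genes (669 and 251) and leaving out lymphoid genes (500 and 269) kept both counts within 1.5 times. Without lymphoid genes the iWAT count fell only by the genes left out, so this setting does not check the others. Each scaling shifted all gaps by 1 constant, at most 0.05 in size, and the list medians moved with it. None moved by over 0.1, which a constant of this size largely fixes in advance. The filter on both depots moved 9 of 25 medians past this limit, among them the mesothelial median (to −2.05) and that of lymph node stroma (to 0.08). No paired analysis was possible because the columns of single samples carry no replicate number or name found in the labels. As these columns were left out, the planned comparison over samples with edgeR or limma was not run, nor any fit without single samples or for each treatment alone. Depth is unknown here, so how far counting error reaches for genes near or under 1 CPM could not be given.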

Other observations

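The genes given here belong to no list and were chosen after their values were seen. Pdk4, a kinase that turns mitochondria from glucose to fat, averaged 7.66 in iWAT and 4.55 in eWAT. Chchd10, a protein of mitochondrial cristae, averaged 8.43 and 5.65, and the mitochondrial carrier Slc25a34 2.88 and −1.10. The β-oxidation enzymes Hadhb, Acadvl and Acaa2 had gaps of 1.72, 1.66 and 1.62, whereas Acadm was within the fold at 1.09. Prdm16os, a transcript opposite Prdm16, averaged 2.81 in iWAT and −1.75 in eWAT; without knowing whether counting used strand, its reads and those of Prdm16 cannot be told apart. Hcar2, a receptor that restrains lipolysis, averaged 6.27 in iWAT and 4.57 in eWAT.

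Other genes were higher in eWAT past the fold. Oxtr, the oxytocin receptor gene, averaged 3.32 in iWAT and 6.03 in eWAT, and Amhr2, the receptor gene of anti-Müllerian hormone, 0.76 and 3.37. The opioid precursor gene Penk averaged 3.90 and 6.51, and the prostacyclin synthase gene Ptgis 2.02 and 4.66. Mogat2, an enzyme that rebuilds triglyceride from monoglyceride, averaged 2.52 in iWAT and 5.14 in eWAT, and the transcription factor gene Sox9 1.51 and 4.32. The imprinted gene Mest, a marker of fat expansion, averaged 7.64 in iWAT and 9.26 in eWAT, and Timp4, an inhibitor of matrix proteases, 6.84 and 8.53. None of these differences has a replicate check.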
